A study of Homo sapiens with 7 samples.

Results

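The cytochrome P450 genes of drug metabolism are the subject here: CYP1A1, CYP1A2, CYP2B6, CYP2C19, CYP2D6, CYP2E1, CYP3A4, CYP3A5 and CYP3A7. A gene was taken as the row of the expression table whose symbols include its name, and these 9 genes gave 9 of 30032 rows. The cells were HepG2, an established human liver cancer cell line, untreated as far as the labels say. 7 samples were made, with 1 sample per assay: native MNase-Seq, which maps nucleosomes without crosslinking, RNA-Seq, and ChIP-Seq of 5 histone marks (H3K27ac, H3K27me3, H3K4me3, H3K9ac and H3K9me3). The labels name no replicates, no control cells and no groups, so no test across samples was possible. Every comparison below is between genes within the same libraries. RNA levels are FPKM, read fragments scaled to transcript length and library size, and an FPKM of 1 or more is called expressed. They are given in 2 columns, taken here as 2 runs of the same sample, which the labels do not state.

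P450 enzymes are heme proteins of the endoplasmic reticulum that oxidise drugs, toxins, steroids and fatty acids with electrons passed on by the reductase POR and, for some of them, by cytochrome b5. Many of their genes are switched by foreign compounds: AHR with its partner ARNT is known to act on the CYP1A genes, and PXR (gene NR1I2) and CAR (gene NR1I3), each with an RXR partner, on the CYP2B, CYP2C and CYP3A genes. HepG2 is known for low P450 activity compared with primary hepatocytes. H3K4me3, H3K9ac and H3K27ac are activation marks, H3K27ac being found at enhancers as well as at promoters, while H3K27me3 and H3K9me3 are suppression marks. A nucleosome with exactly the 3 activation marks is called trivalent, or "T".

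The promoters of the CYP3A members are shown because these genes are near copies that sit side by side and yet differ in RNA level and in marks. They come from RefSeq (GRCh38.p14), run from 250 bases before to 50 bases after the start site, and are written 5′ to 3′ on the strand of the gene. All 3 genes are on the minus strand, CYP3A4 at chr7:99784135-99784434, CYP3A5 at chr7:99679947-99680246 and CYP3A7 at chr7:99735147-99735446. Capitals mark TATAAA, the nuclear receptor core AGGTCA, and an everted repeat, TGAACT and AGGTCA with any 6 bases between them, of the kind that PXR is known to bind.
CYP3A4: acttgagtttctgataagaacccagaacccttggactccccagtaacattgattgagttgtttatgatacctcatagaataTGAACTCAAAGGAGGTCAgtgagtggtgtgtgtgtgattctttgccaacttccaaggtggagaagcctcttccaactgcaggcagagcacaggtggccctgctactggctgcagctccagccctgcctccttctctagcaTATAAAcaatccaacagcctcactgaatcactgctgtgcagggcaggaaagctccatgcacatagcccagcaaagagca
CYP3A5: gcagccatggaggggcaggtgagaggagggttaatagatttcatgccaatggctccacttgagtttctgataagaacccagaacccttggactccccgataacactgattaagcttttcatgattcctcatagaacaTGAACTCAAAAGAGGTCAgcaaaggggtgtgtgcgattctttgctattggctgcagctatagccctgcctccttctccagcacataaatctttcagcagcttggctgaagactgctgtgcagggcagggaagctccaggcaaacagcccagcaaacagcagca
CYP3A7: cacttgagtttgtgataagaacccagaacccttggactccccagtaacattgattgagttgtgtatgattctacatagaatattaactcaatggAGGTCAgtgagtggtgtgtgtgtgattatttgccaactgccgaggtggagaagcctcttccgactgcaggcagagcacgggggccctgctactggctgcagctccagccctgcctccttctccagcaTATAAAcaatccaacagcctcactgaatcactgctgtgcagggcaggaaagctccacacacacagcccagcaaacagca

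The CYP3A4 and CYP3A7 promoters were identical at 94.3% of 299 aligned bases, CYP3A4 and CYP3A5 at 85.9% of 241, and CYP3A5 and CYP3A7 at 84.3% of 242. The everted repeat was matched exactly in CYP3A4, starting 169 bases before the start site, and in CYP3A5, starting 113 bases before it. It was not matched exactly in CYP3A7, which held AGGTCA at -156 with TTAACT in place of TGAACT at the same spacing before it. Of 35116 RefSeq promoters of the same length, 3 held an exact match of this repeat on either strand, and the third was that of ITGB1BP2. This repeat was added to the motifs after the values were seen. The CYP3A promoters are near copies, so the CYP3A4 and CYP3A5 matches are not independent. The repeat contains AGGTCA, which 13.8% of all promoters held, so each everted repeat counts as an AGGTCA match too. TATAAA, found in 11.5% of all promoters, was matched at -29 in CYP3A4 and CYP3A7 and was not matched in CYP3A5.

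The promoters of the CYP1A pair and of CYP2E1 are shown because CYP1A1 carried the only H3K4me3 near a start site among the members, CYP1A2 next to it carried no mark, and CYP2E1 carried H3K27me3. CYP1A1 lies on the minus strand at chr15:74725479-74725778, CYP1A2 on the plus strand at chr15:74748595-74748894 and CYP2E1 on the plus strand at chr10:133527113-133527412 (all GRCh38.p14). Capitals mark GCGTG, the core that AHR with ARNT is known to bind, TATAAA and AGGTCA, on either strand.
CYP1A1: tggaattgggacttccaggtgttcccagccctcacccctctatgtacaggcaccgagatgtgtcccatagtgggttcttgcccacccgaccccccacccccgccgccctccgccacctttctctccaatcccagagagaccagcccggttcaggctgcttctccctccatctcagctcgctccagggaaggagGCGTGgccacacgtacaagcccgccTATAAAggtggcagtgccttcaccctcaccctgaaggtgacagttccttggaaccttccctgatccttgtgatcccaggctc
CYP1A2: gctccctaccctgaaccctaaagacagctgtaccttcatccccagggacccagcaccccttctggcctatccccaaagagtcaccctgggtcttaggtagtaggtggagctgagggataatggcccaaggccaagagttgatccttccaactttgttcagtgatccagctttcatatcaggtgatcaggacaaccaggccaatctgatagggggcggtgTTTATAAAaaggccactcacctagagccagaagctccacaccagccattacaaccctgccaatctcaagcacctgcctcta
CYP2E1: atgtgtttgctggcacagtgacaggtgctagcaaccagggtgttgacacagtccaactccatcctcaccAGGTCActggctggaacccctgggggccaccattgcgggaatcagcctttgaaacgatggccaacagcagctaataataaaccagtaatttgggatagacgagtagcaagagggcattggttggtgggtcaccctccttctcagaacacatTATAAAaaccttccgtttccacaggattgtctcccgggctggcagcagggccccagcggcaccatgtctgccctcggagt

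GCGTG was matched in CYP1A1 alone among the 8 members with a RefSeq promoter, at -57, and 36.5% of all promoters held it. CYP1A1 and CYP1A2 were identical at 52.4% of 271 aligned bases, far below the CYP3A members. TATAAA was matched on the gene strand in CYP1A1 at -32, CYP1A2 at -29, CYP2C19 at -31 and CYP2E1 at -30, and in CYP2B6 on the opposite strand, so 7 of 8 promoters held it. AGGTCA was matched in 5 of 8, which were CYP2B6, CYP2E1 and the CYP3A members. The core CAAAG of HNF4, a liver nuclear receptor, is found in 47.5% of all promoters and was matched in CYP1A2, CYP2B6, CYP2C19, CYP2E1, CYP3A4 and CYP3A5. TTGCNNAA, a loose form of the C/EBP motif held by 10.5% of promoters, was matched in CYP2B6 only, while TTGCGCAA (0.151%) and the HNF1 motif (0.0057%) were matched in no member.

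At the RNA level, 6 of the 9 genes were expressed, where 51.3% of 22113 named loci were. The median of the members was an FPKM of 2.56, and that of all named loci was 1.24. The order from high to low was CYP3A5, CYP3A7, CYP1A1, CYP2E1, CYP3A4, CYP2D6, CYP2B6, CYP1A2 and CYP2C19, and CYP3A5 was 99.7-fold above CYP2C19. Between neighbours in this order the 2 runs overlapped for CYP1A2 and CYP2C19 only. Taken as runs of the same sample, the 2 columns give no known spread between cultures. An FPKM of a bulk culture cannot tell fewer cells with the RNA from less RNA per cell.

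The CYP1A pair stood farther apart than the members of the CYP3A cluster. CYP1A1, which oxidises polycyclic aromatic hydrocarbons and is the classic AHR target, was at 8.32 (run 1) and 8.13 (run 2) FPKM. CYP1A2, the hepatocyte enzyme that metabolises caffeine and theophylline, had 0.148 and 0.102. CYP1A1 was thus 65.8-fold higher by the means, 56.1-fold in run 1 and 79.8-fold in run 2, although only 23.3 kb lie between them. Among all named loci CYP1A1 was at the 68.4th percentile and CYP1A2 at the 37.8th.

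Of the CYP2 members, CYP2E1, which oxidises ethanol and acetaminophen, was the highest, with an FPKM of 6.03 and 5.19. Its runs differed by -0.22 in log2 (run 2 minus run 1), a gap that 11.5% of 3945 loci within 2-fold of its level exceeded. CYP2D6, which metabolises codeine and many antidepressants, had 1.49 and 1.59. CYP2B6, a CAR target that acts on bupropion and efavirenz, had 0.534 and 0.423, and CYP2C19, which activates clopidogrel, had 0.0873 and 0.133. CYP2B6 and CYP2C19 were thus below 1 in both runs, CYP2C19 at the 37.2nd percentile of named loci.

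The CYP3A members were led by CYP3A5, a form that varies widely between people in the liver, with an FPKM of 10.9 and 11.1. CYP3A7, the main form of the fetal liver, had 8.48 and 9.31. CYP3A4, the main drug-metabolising P450 of the adult liver, had 2.63 and 2.49. CYP3A5 was 4.29-fold and CYP3A7 3.48-fold above CYP3A4, and these folds were at least 3.23 in each run. CYP3A5 was 1.23-fold above CYP3A7, with runs that did not overlap, while the run gap of CYP3A7 (0.13 in log2) was exceeded by 21.97% of 4625 loci of like level. The CYP3A genes are close paralogs, as are CYP2D6 and its pseudogene CYP2D7, so their reads may have been divided among copies; how far this shifted their FPKM was not tested. CYP2D6 and CYP3A5 also shared their coordinates with other rows of the table.

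**Figure D1:**
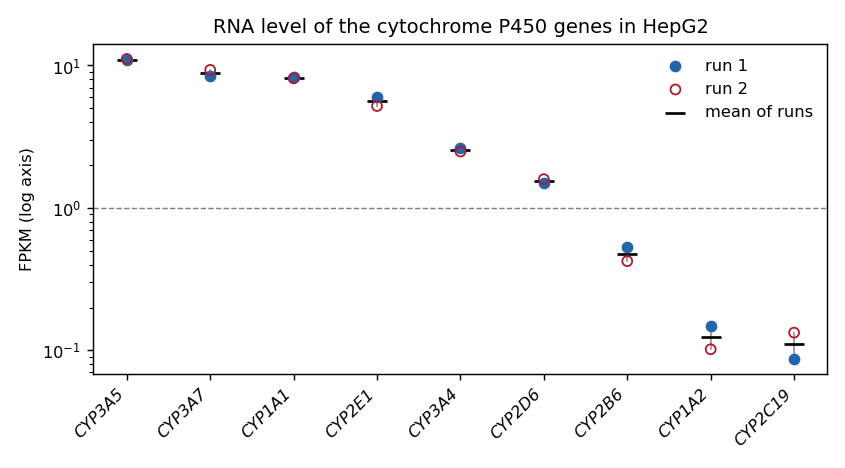
FPKM of the 9 cytochrome P450 genes on a log axis, with run 1 as filled points, run 2 as open points, their mean as a bar and a dashed line at an FPKM of 1. CYP3A5, CYP3A7 and CYP1A1 lie highest, 3 genes lie below the line, and the runs cross in order only for CYP1A2 and CYP2C19.

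The machinery around the P450 genes was expressed. All 11 of the listed receptors, partners and electron donors had an FPKM of 1 or more, with a median of 49.2. AHR had 11.6, NR1I2 6.59, NR1I3 2.25 and RXRA 14.4. The lowest of them, NR1I3, had 2.5 and 2.0 in its runs, at about the level of CYP3A4. The reductase POR had 70.5, CYB5A 130.3 and HNF4A 64.6. ARNT at 8.53 and the AHR repressor AHRR at 54.8 each share a row with another gene (CTSK and PDCD6), so their own levels are uncertain. Of other AHR targets, TIPARP had 9.21 and NQO1 284.2, while CYP1B1 had 0.0908, so 2 of 3 were expressed. Of other PXR and CAR targets, 3 of 3 were: the drug pump gene ABCB1 at 22.6 and 23.4 in its runs, the heme synthesis gene ALAS1 at 24.9 and a row that joins UGT1A1 with other UGT1A symbols at 2.39.

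As for the cells, the 8 liver markers were all expressed, from FGB at 56.6 to ALB at 10011. Of 8 markers of other cell types, PTPRC and KRT5 were listed at 0 in both runs and COL1A1, PECAM1 and KRT7 were between 0.109 and 0.164. KRT19 (109.5), ACTA2 (33.9) and CD68, in a row of several genes (542.5), were above 1, and their part in any result was not tested. The nucleosome map held 14217405 positions, of which 203848 (1.43%) carried a mark. The authors report a larger number and a larger share of marked nucleosomes in these cells than the lists hold. The reason was not tested, and an absent mark below may be one that the lists lack. The lists give neither read counts nor scores, so the depth behind a position is unknown. Intervals below are exact Clopper-Pearson 95% intervals and, like the limit that a count of 0 allows (3 positions), cover counting error only. They treat positions as independent, while marked positions often lay side by side, so they are likely too narrow.

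Marks were counted in each locus plus 10 kb on both sides, in hg19 coordinates. The 9 regions held 2602 nucleosome positions, and 79 were marked: 33 with H3K27ac alone, 16 "T", 9 with H3K9ac and H3K27ac, 5 with H3K27me3, 5 with H3K9me3 alone, and the rest with other combinations of H3K4me3, H3K9ac, H3K27ac and H3K9me3. H3K27ac alone thus made up 41.8% of the marked positions (interval 30.8 to 53.4), where it made up 19.9% of marked positions in the genome. Of these 33 positions, 28 were in the CYP3A cluster and 5 in the CYP1A1 region, so outside the CYP3A members the share was 5 of 35 (14.3%, interval 4.81 to 30.3). The share of "T" was 20.3% in the members and 20.98% in the genome. Nucleosome positions themselves were at 4.75 to 5.48 per kb in the members, inside the range from the 10th (4.59) to the 90th percentile (5.53) of named loci.

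H3K4me3 was present in 5 of the 9 regions, where 73.7% of named loci had it. H3K9ac was present in 6 (73.7% of named loci), H3K27ac in 6 (67.9%), "T" in 5 (63.2%), H3K27me3 in 2 (31.2%) and H3K9me3 in 3 (31.9%), and 8 of 9 had any mark (90.0%). Each count was within 2 genes of the number that its share gives for 9 genes. These shares do not take the RNA level into account. Among named loci at an FPKM of 1 or more, 98.4% had H3K4me3 and 96.9% H3K27ac. Of the expressed members, all had H3K27ac and all but CYP3A4 had H3K4me3 in the region. The shares of positions differed more between members. In CYP3A7, 29 of 381 positions carried H3K27ac (7.61%, interval 5.16 to 10.7), and in CYP1A1 10 of 132 did (7.58%, interval 3.69 to 13.5). These were at the 96.9th and 96.8th percentile of named loci, whose mean was 1.82%. Of the 29 in the CYP3A7 region, 13 lay upstream of the gene or within its RefSeq length, 10 lay in the locus beyond that length, and 6 lay in the flank inside CYP3A5. For CYP3A5 and CYP2D6 the share was 2.46% and 2.49%, for CYP3A4 1.59% and for CYP2E1 0.637%.

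Among named loci below an FPKM of 1, H3K4me3 was present in 47.7% of regions, H3K9ac in 47.7% and H3K27ac in 37.2%. The 3 members of that level had few marks. CYP1A2 had 0 marked of 152 positions, which allows a share of up to 1.97%. CYP2B6 had 1 position with H3K9me3 among 242, and CYP2C19 had 5 marked among 524, which were 3 with H3K9me3, of them 1 with H3K9ac as well, and 2 with H3K27me3. H3K4me3 and H3K27ac were at 0 positions in each of these 3 genes. CYP2E1 had the largest share of H3K27me3, 3 of 157 positions (1.91%, interval 0.396 to 5.48), at the 98.2nd percentile of named loci.

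**Figure D2:**
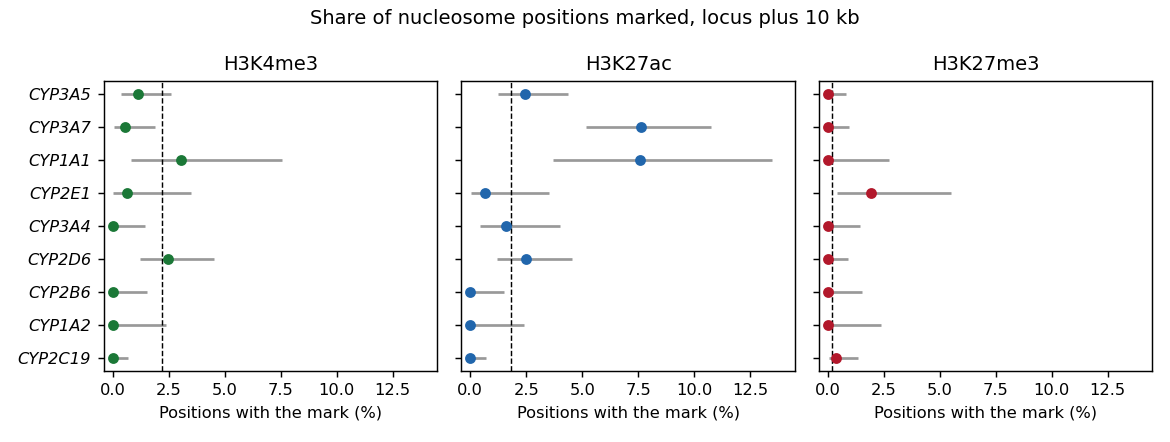
Percentage of nucleosome positions with H3K4me3, H3K27ac and H3K27me3 in each locus plus 10 kb, genes ordered by RNA level, with exact 95% intervals as bars and the mean of named loci as a dashed line. CYP3A7 (7.61%, with 13 of its 29 positions upstream of the gene or within its RefSeq length) and CYP1A1 (7.58%) are highest for H3K27ac. CYP2E1 (1.91%) is highest for H3K27me3. The intervals treat neighbouring positions as independent, so they are no test against the line.

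Marks near the transcription start site (TSS) were counted within 2 kb of the locus edge at the 5′ end of the gene, which could be placed for 8 members, all but CYP2D6. Among them 1 of 8, CYP1A1, had H3K4me3, where 58.5% of 8571 loci with a placed TSS had it. H3K9ac was found in 1 of 8 (54.9%), "T" in 1 (47.0%), H3K27ac in 3 (48.9%), H3K27me3 in 1 (9.25%), H3K9me3 in 0 (2.37%) and any mark in 4 (67.7%). The RNA level was taken into account next. Of the 8 genes, 5 were expressed, between an FPKM of 2.56 and 10.99, and 1574 of the loci with a TSS lay in this range. Of those 1574 loci, 92.9% had H3K4me3 near the TSS, 91.0% H3K9ac, 83.1% "T" and 85.6% H3K27ac, against 1, 1, 1 and 3 of the 5 genes. H3K27me3 was found in 1.46% of these loci, and CYP2E1 was the member that had it, while H3K9me3 (0.635%) was found in none of the 5. CYP3A7 had no marked position near its TSS, like 5.65% of these loci. CYP3A4 had H3K27ac without H3K4me3 there, like 0.889% of them, and so had CYP3A5. The 3 genes below an FPKM of 1, CYP1A2, CYP2B6 and CYP2C19, had 0 marked positions within 2 kb. Of 4048 loci below 1, 37.8% had any mark there, 20.1% H3K4me3, 13.7% H3K9ac, 5.71% H3K27ac, 4.15% "T", 18.1% H3K27me3 and 3.90% H3K9me3.

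The distance to the nearest H3K4me3 nucleosome gave a second measure. It was 0.424 kb upstream of the TSS in CYP1A1, 6.81 kb upstream in CYP2E1, 13.1 kb upstream in CYP3A5, 41.4 kb into the locus in CYP3A7 and 43.8 kb upstream in CYP3A4. For the 1574 loci of like level the median distance was 0.187 kb and the 90th percentile 1.03 kb, so all 5 lay beyond the median and 4 of them beyond the 90th percentile. The positions nearest to CYP3A5 and CYP3A7 lay in the same stretch (99290732 to 99293471). The position nearest to CYP3A4 lay at the edge of the CYP3A43 locus. The nearest H3K27ac was closer than the nearest H3K4me3 in the 3 CYP3A members, at 1.23 kb into the locus in CYP3A5, 1.89 kb in CYP3A4 and 4.45 kb in CYP3A7. In CYP1A1 it was farther, 0.619 kb upstream, and in CYP2E1 it was on the same nucleosome as H3K4me3. In CYP2B6 and CYP2C19, which were not expressed, the nearest H3K4me3 was 184.6 kb and 216.2 kb away, and in CYP1A2 it was 22.3 kb upstream, on the side of CYP1A1. The TSS of CYP3A5 is the edge of a locus whose coordinates it shares with ZNF498. Its RefSeq start (GRCh38.p14) lies farther from those of CYP3A4 and CYP3A7 than this edge lies from theirs. Distances into CYP3A5 may thus be overstated, and its counts near the TSS may be shifted.

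**Figure D3:**
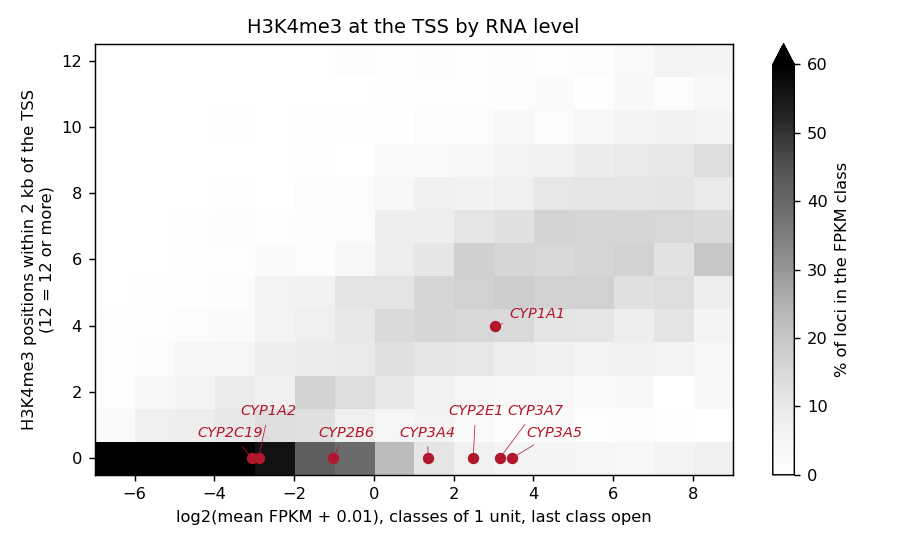
Number of H3K4me3 positions within 2 kb of the TSS (vertical axis) against log2(mean FPKM + 0.01) for the 8571 loci with a placed TSS, shaded by the percentage of loci in each class of RNA level, with 8 cytochrome P450 genes as red points. CYP1A1 has 4 such positions and lies among the loci of its level, while CYP2E1, CYP3A4, CYP3A5 and CYP3A7 have 0 at levels where most loci have some.

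CYP1A1 (hg19, chromosome 15, 75011883 to 75017877, minus strand) was the member with a marked start region. Of 21 positions within 2 kb of its TSS, 6 were marked, 4 with H3K4me3, 3 with H3K9ac, 5 with H3K27ac, and 2 as "T". They were not over the start itself: 5 neighbouring positions from 75018232 to 75019171 were marked without a gap, at -0.424 to -1.22 kb from the TSS, and the sixth lay 1.56 kb into the gene. A stretch of 5 marked positions among 6 followed at -5.04 to -5.79 kb (75022852 to 75023741), 4 with H3K27ac alone and 1 with H3K9ac and H3K27ac. Both stretches lay between CYP1A1 and CYP1A2 (75041184 to 75048941, plus strand), which point away from each other. On the CYP1A2 side, the 10 kb next to its TSS held no mark.

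CYP2E1 (chromosome 10, 135340867 to 135352641, plus strand) was expressed with H3K27me3 at the start of the gene. Of the 4 positions from 135341367 to 135342086, 3 carried H3K27me3 and no other mark, 0.569, 0.757 and 1.15 kb into the gene. No activation mark lay within 2 kb of its TSS, and the nearest was 1 "T" nucleosome 6.81 kb upstream (135333984 to 135334123). Of the 1574 loci of like level, 4 (0.254%) had H3K27me3 without any activation mark near the TSS, namely CYP2E1, SP110, TEF and CC2D2A. The other 3 had 1 such position each, and CYP2E1 had 3.

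The CYP3A members lie in a row on the minus strand of chromosome 7, CYP3A5 from 99214027 to 99278272, CYP3A7 from 99282363 to 99332954 and CYP3A4 from 99354604 to 99381808, with 4.09 kb and 21.6 kb between them. Together they held 44 marked positions, 28 of them with H3K27ac alone (63.6%, interval 47.8 to 77.6) and 5 as "T" (11.4%). H3K27me3 was at 0. CYP3A5 had 6 positions with H3K27ac alone among 14, from 1.23 to 3.4 kb into its locus (99274804 to 99277116). CYP3A7 had 7 among 10, from 4.45 to 5.94 kb into the gene (99326942 to 99328571), 3 more with H3K27ac alone and 1 with H3K9ac from 14.3 to 15.6 kb, and 3 with H3K27ac alone upstream, at -7.67 to -8.0 kb. CYP3A4, the least expressed, had 4 in all, at 1.89, 32.1, 32.2 and 35.6 kb, the last 3 of them past the end of its locus. The H3K27ac stretch of CYP3A5 also falls in the 10 kb next to CYP3A7, so 6 positions count for both.

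The H3K4me3 in the CYP3A loci lay far from the TSS. The 5 positions with H3K4me3 of CYP3A5, 3 of them "T", were 63.0 to 63.9 kb from its TSS, at the other end of a locus whose coordinates it shares with ZNF498 (FPKM 6.30). That locus is 64246 bp long, where RefSeq gives 31803 bp for CYP3A5, so these positions lie outside the gene as RefSeq has it. The 2 "T" positions of CYP3A7 were in a stretch of 11 marked among 13 positions, 39.6 to 42.2 kb into the locus (99290732 to 99293471). The locus is 50592 bp long, close to the 50520 bp of the readthrough gene CYP3A7-CYP3A51P, and CYP3A7 itself spans 30161 bp, so this stretch too is beyond CYP3A7. No H3K4me3 was therefore found in CYP3A7 or CYP3A4 themselves or within 10 kb upstream of them. Without the positions of CYP3A5 more than 20 kb from its TSS, 27 of the 35 marked positions of the 3 genes carried H3K27ac alone.

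**Figure D4:**
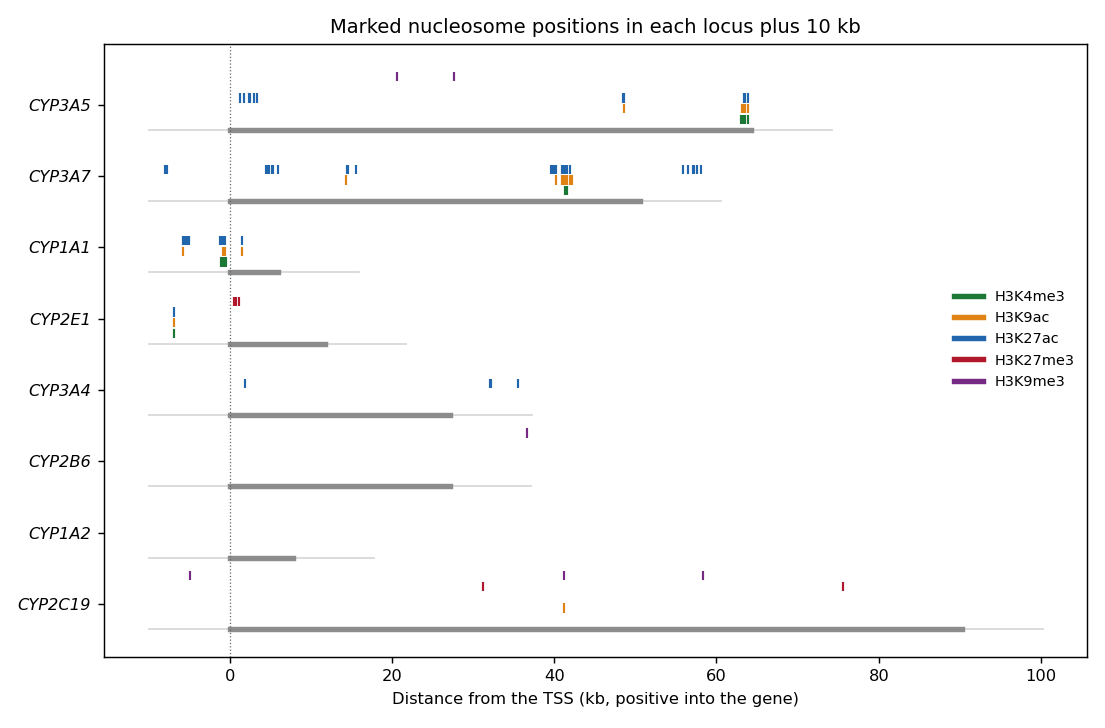
Marked nucleosome positions of 8 genes by distance from the TSS in kb (positive into the gene), with the locus as a thick bar, the added 10 kb as a thin line and a row of ticks per mark. H3K27ac lies inside the CYP3A5 and CYP3A7 loci away from the TSS, H3K4me3 lies next to the TSS only in CYP1A1, H3K27me3 lies at the start of CYP2E1, and CYP1A2 is bare.

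CYP2D6 could not be read alone. Its row has the coordinates 42481530 to 42545987 on chromosome 22, 64458 bp, where RefSeq gives the gene 4312 bp, and 3 other rows with NDUFA6, LOC100132273 and no symbol have the same coordinates. The region had 14 marked among 402 positions. A stretch of 6, 4 of them "T", lay in the flank (42475004 to 42476296), inside the row of C22orf32 and FAM109B with an FPKM of 16.5. A stretch of 5, 4 of them "T", lay at 42486192 to 42487473, and NDUFA6, a subunit of respiratory complex I, had an FPKM of 60.5. The last 3 carried H3K9ac, 1 of them with H3K27ac, at 42512717 to 42512856 and 42526607 to 42526943, and no H3K4me3 was found there. Which rows these marks belong to cannot be told apart from the coordinates alone.

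Nucleosome spacing at the TSS also differed between members. Between 12 and 13 positions lay within 1 kb of the TSS in CYP3A4, CYP3A5, CYP3A7 and CYP1A2, 10 in CYP2B6, CYP2C19 and CYP2E1, and 9 in CYP1A1. The median of the 8571 loci was 9, and 12 or more were found in 9.08% of them, in 3.51% of those with H3K4me3 near the TSS and in 16.9% of those without. The widest gap between positions there was 510 bp in CYP1A1 and 333 bp or less in the other 7, down to 225 bp in CYP3A7. Loci with H3K4me3 had a median of 430 bp and loci without it 310 bp. Over the 300 bases from 250 before to 50 after the hg19 locus edge, which need not be the stretch of the RefSeq promoters printed above, 0 of 8 members had a marked position, where 36.4% of the 8571 loci and 54.5% of those of like level did.

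Other P450 genes showed how far this is shared. The table held 49 other CYP names, each taken at its highest row. Of these, 20 were expressed and 15 were below 0.1, with a median of 0.472. The highest were CYP51A1 of cholesterol synthesis (76.4), CYP27A1 of bile acid synthesis (74.5), CYP24A1 of vitamin D breakdown (30.8), CYP2W1 (20.04) and the aromatase gene CYP19A1 (11.1). CYP3A5 came next. Of the 10 expressed other CYP genes with a placed TSS, 6 had H3K4me3 near it, 6 had "T", 7 had H3K27ac and 0 had H3K27me3, where 1, 1, 3 and 1 of the 5 expressed members did. These numbers are small and were not tested.

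Some CYP genes lie close to the members on the chromosome. CYP3A43, the next gene of the CYP3A cluster, had an FPKM of 2.67, about that of CYP3A4, with 15 H3K27ac, 10 H3K4me3 and 7 "T" positions within 2 kb of its TSS, where CYP3A4 had 1, 0 and 0. CYP2C8 was expressed at 2.85 with no activation mark in its locus plus 10 kb, and had 1 H3K27me3 and 2 H3K9me3 positions there. CYP2A6 had an FPKM of 1.21 and CYP2S1 1.11, while CYP2F1, CYP2C18, CYP2B7P1, CYP2A7 and CYP2A13 were between 0.0126 and 0.275.

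Likeness was measured over 6 values, log2(mean FPKM + 0.01) and the percentage of positions with each of the 5 marks. Each was divided by its SD over all CYP loci, and each member was compared with 53 other CYP loci. CYP1A2 was closest to CYP17A1 at a distance of 0.0814, CYP2B6 to CYP4F24P at 0.262, CYP2C19 to CYP7B1 at 0.492 and CYP3A4 to CYP8B1 at 0.492. The others had no near match: CYP3A5 was closest to CYP20A1 at 1.10, CYP2D6 to CYP11A1 at 1.30, CYP1A1 to CYP3A43 at 1.41, CYP2E1 to CYP2A6 at 1.43 and CYP3A7 to CYP4F12 at 1.88. The closest matches were thus among genes of few marks. For such genes most of the 6 values are at or near 0, so the measure itself makes their distances small.

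**Figure D5:**
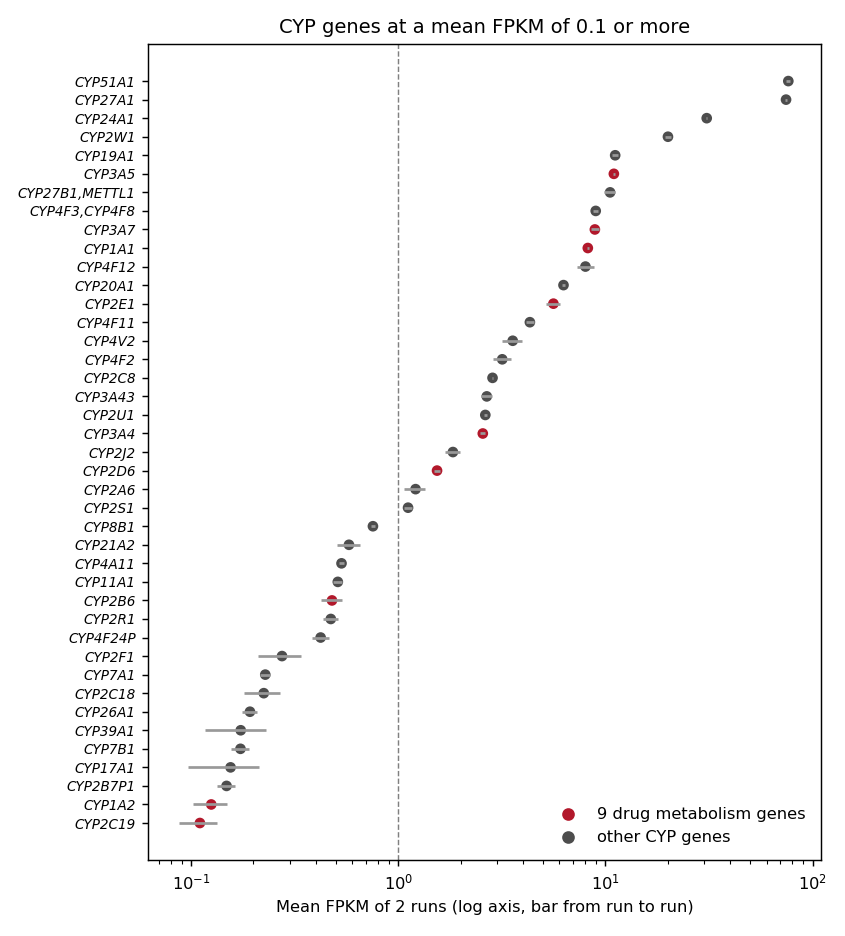
Mean FPKM of CYP genes at 0.1 or more on a log axis, with a bar from run to run, the 9 drug metabolism genes in red, other CYP genes in grey and a dashed line at an FPKM of 1. CYP51A1 (76.4) and CYP27A1 (74.5) lead, CYP3A5 (10.99) is the highest of the 9, and CYP1A2 (0.125) and CYP2C19 (0.110) lie at the low end.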

How the data were processed

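The authors aligned the reads to hg19, and the submitters' processing notes name BWA, Bowtie, TopHat2 2.1.0, HOMER 4.7 and edgeR without saying which step used which. DANPOS called the nucleosome positions, and NUCLIZE called peaks of each mark at these positions against input; both were deposited by the authors as coordinates with an identifier, with no read count or score. The authors deposited RNA levels as FPKM in 2 columns, taken here as runs of 1 sample since the labels name no more samples, with sums of 857059 and 982212; whether they are separate cultures is not stated in the sources used here. The fold, p-value and q-value columns of the authors' own comparison of the columns were not used.

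All 319086 peaks were joined to positions by identifier; each peak reached 3 bp beyond its 140 bp position. A position counted where its midpoint fell in the window. Starts were written with the first base as 1. Of 30032 rows, 23303 had a symbol and 22113 of these were named loci on chromosomes 1 to 22, X and Y with a usable status. TSS were locus edges with RefSeq strands, placed for 8571 loci with their own coordinates; CYP3A5, which shares coordinates, was placed too but is outside these. A locus edge may not be the start that cells use. RefSeq promoters (GRCh38.p14) were matched by symbol for 8 of 9 members; CYP2D6 had no entry. Their build differs from that of the marks, and no coordinates were carried over.

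No test was run. Members and lists were chosen with earlier results of these data known. Named were the members, CYP genes near them, the 5 highest other CYP genes, the closest CYP gene of each, genes within the regions, and listed receptors, targets and markers, of which 1 gene is not reported here; the everted repeat and the loci sharing the pictures of CYP2E1 and CYP3A4 were added after the values were seen. Neighbouring marked positions within 1 kb formed a stretch. The counting was tested on simulated data. Alternatives were other flanks, TSS windows, FPKM limits, pseudocounts, overlaps and sets of loci, each run alone, and a rule requiring the same mark within 400 bp. The work was done in Python 3.11.15 with scipy 1.17.1, matplotlib 3.10.9, pandas 2.3.3 and numpy 2.4.6.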

Additional observations from a re-analysis of the deposited data

How the results depend on the processing

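The number of expressed members depended on the limit: it was 6 at an FPKM of 1, 9 at 0.1 and 4 at 5, and 6 in each run alone. The H3K9ac and H3K27ac counts of members, and H3K4me3, H3K9ac, H3K27me3 and "T" near the TSS, stayed within 1.5 times under the alternatives run for them. The median rank of the members fell from 54.8 to 28.6 among loci at an FPKM of 0.1 or more. With a pseudocount of 1, the log2 differences were 3.04 (CYP1A1 minus CYP1A2), 1.75 (CYP3A5 minus CYP3A4) and 1.48 (CYP3A7 minus CYP3A4). Without flanks there were 12 H3K4me3, 38 H3K27ac and 9 "T" positions, with H3K4me3 in 3 members and "T" in 3. Without CYP2D6, added after seeing the data, there were 12 H3K4me3, 19 H3K9ac and 8 "T" positions. The lists hold no score, so a stricter call was set by requiring the same mark within 400 bp: 3 H3K27me3 positions in 1 member and 0 H3K9me3 positions in 0 members were left. An overlap of 1 bp gave 11 H3K9me3 positions. Within 1 kb of the TSS, 1 member had H3K27ac and 2 had any mark; within 5 kb, 1 had H3K9me3. Among named loci under an FPKM of 1, the share with H3K4me3 was 47.7%, H3K9ac 47.7%, H3K27ac 37.2% and "T" 29.8%; among those at 1 or more, 20.2% had H3K27me3 and 94.9% "T". Near the TSS at the level of the expressed members, also added later, the shares were 92.9% (H3K4me3), 91.0% (H3K9ac), 85.6% (H3K27ac), 1.46% (H3K27me3), 0.635% (H3K9me3) and 83.1% ("T"). The causes of these shifts were not tested, beyond the fewer positions or loci that each setting holds. With 1 library per mark, a missing peak may be a missed call, and counts of 1 to 3 positions are the least certain. No paired analysis was possible because each assay had 1 sample and no groups were compared.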

Other observations

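CYP3A4 was among 14 of 1574 loci of like level (0.889%) with H3K27ac and no H3K4me3 within 2 kb of the TSS. For CYP3A4 this rests on 1 H3K27ac position, 1.89 kb into the gene and thus close to the edge of the window. The other 13 were ARHGEF2, BANP, C8B, FITM1, GRAMD4, KNG1, MBL2, SLC17A2, SLC9A8, SMAD3, SPINK1, SULT1E1 and TRMT61A. SLC17A2 had the most H3K27ac positions there, 9, with an FPKM of 5.49 and 6.04 in the runs, and MBL2, a lectin of innate immunity, had 6, with 5.10 and 4.63, as had SMAD3, with 8.16 and 7.88. No mark at all near the TSS, as in CYP3A7, was found in 5.65% of loci of like level. The row of UGT1A1, an enzyme of glucuronidation that follows P450 oxidation, held 16 H3K27ac positions and 0 H3K4me3 positions among 943 in its locus plus 10 kb, with 2.48 and 2.30 in the runs.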
